A study of Mus musculus with 6 samples.

Results

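Hippocampal field markers were read from brain RNA of 24-month-old mice, as 9 genes matched by symbol among the 38087 genes of the deposited table. Of these, 6 mark granule neurons of the dentate gyrus (Prox1, Dsp, C1ql2, Lct, Tdo2 and Trpc6) and 3 mark pyramidal neurons of Ammon's horn (Fibcd1, Wfs1 and Spink8). RNA-seq was performed on 3 wild-type (WT) mice and 3 Sgo1-/+ mice, with 1 library per mouse. Both groups were C57BL6-based, were 24 months old and had been kept without treatment, and Sgo1-/+ mice carry 1 functional copy of Shugoshin-1, a protector of cohesin in mitosis, in all cells. Of the 6 mice, WT replicate 1 and Sgo1-/+ replicate 2 were the only males. WT libraries came from run 258 and Sgo1-/+ libraries from run 259, so genotype and run cannot be told apart.

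By the study's methods, the cerebrum was extracted with its cortex and hippocampus after the olfactory bulb, the cerebellum and the medulla had been removed. How much hippocampus each extract held is not given in the sources used here, and in bulk tissue fewer cells of a type and less RNA per cell cannot be told apart. The libraries were of like depth, from 11123917 to 12505561 estimated counts in total. A count of 0 at this depth allows up to 3 counts, a limit that covers counting error only.

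The hippocampus receives cortical input through the dentate gyrus, whose granule neurons project by mossy fibers to the pyramidal neurons of field CA3, which in turn project to field CA1. The dentate gyrus is also a site where neurons are born in the adult mouse. Prox1 is the homeodomain transcription factor that sets and maintains granule neuron identity. Dsp encodes desmoplakin, a linker protein of desmosomes. C1ql2 encodes a secreted protein of mossy fiber synapses. Lct (lactase) and Tdo2 (tryptophan 2,3-dioxygenase) encode metabolic enzymes better known from gut and liver, and Trpc6 encodes a cation channel. Fibcd1 encodes a membrane receptor with a fibrinogen-type domain, Wfs1 an endoplasmic reticulum membrane protein, and Spink8 a Kazal-type protease inhibitor. These markers differ in how narrowly they are used. Prox1 is also found in thalamus and in interneurons, and Wfs1 also in cortex, striatum and amygdala.

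In the mm10 coordinates of the table, the dentate genes were Prox1 (ENSMUSG00000010175) at chr1:190118038-190170680 on the minus strand, Dsp (ENSMUSG00000054889) at chr13:38151328-38198577 on the plus strand, C1ql2 (ENSMUSG00000036907) at chr1:120340582-120343171 on the plus strand, Lct (ENSMUSG00000026354) at chr1:128284756-128328318 on the minus strand, Tdo2 (ENSMUSG00000028011) at chr3:81957090-81975750 on the minus strand and Trpc6 (ENSMUSG00000031997) at chr9:8544196-8680565 on the plus strand. The Ammon's horn genes were Fibcd1 (ENSMUSG00000026841) at chr2:31813290-31846005 on the minus strand, Wfs1 (ENSMUSG00000039474) at chr5:36966104-36988982 on the minus strand and Spink8 (ENSMUSG00000050074) at chr9:109812280-109826633 on the plus strand.

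The promoters of the 4 dentate genes that were highest in the same library (Prox1, Dsp, C1ql2 and Lct, described below by their counts) were compared in sequence. RefSeq promoters of build GRCm38.p6, the assembly of the mm10 files, were found for 8 of the 9 genes. The 250 bases before the start site are given 5′ to 3′, and capitals mark the E-box CAGATG, a form bound by NeuroD-type factors of granule neurons. Prox1 has a second start site that is not shown. The windows are chr1:190170828-190171077 on the minus strand, chr13:38151044-38151293 and chr1:120340332-120340581 on the plus strand, and chr1:128328319-128328568 on the minus strand.
Prox1: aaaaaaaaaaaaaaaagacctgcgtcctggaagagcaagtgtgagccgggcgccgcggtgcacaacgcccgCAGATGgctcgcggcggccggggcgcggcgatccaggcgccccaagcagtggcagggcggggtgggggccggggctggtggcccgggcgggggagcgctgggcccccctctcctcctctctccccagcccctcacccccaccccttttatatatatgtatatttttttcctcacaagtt
Dsp: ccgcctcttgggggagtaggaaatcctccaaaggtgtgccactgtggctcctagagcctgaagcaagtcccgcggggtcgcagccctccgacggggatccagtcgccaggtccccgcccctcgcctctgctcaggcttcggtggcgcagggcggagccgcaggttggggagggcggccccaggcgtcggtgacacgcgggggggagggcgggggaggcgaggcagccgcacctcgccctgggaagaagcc
C1ql2: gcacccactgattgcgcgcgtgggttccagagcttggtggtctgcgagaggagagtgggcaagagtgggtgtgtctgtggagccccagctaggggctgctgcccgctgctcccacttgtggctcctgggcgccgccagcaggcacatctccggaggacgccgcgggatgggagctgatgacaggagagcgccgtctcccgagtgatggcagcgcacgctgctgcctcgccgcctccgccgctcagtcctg
Lct: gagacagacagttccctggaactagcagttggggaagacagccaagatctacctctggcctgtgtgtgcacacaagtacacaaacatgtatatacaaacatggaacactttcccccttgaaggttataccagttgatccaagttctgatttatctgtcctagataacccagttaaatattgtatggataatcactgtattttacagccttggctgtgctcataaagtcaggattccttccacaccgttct
The windows of Dsp, C1ql2 and Prox1 were rich in G and C, at 72.4, 68.8 and 64.8%, with 22, 20 and 20 CG dinucleotides. The window of Lct had 42.8% G and C and 1 CG dinucleotide, against medians of 52.4% and 6 over 32851 promoters of the same length. CAGATG, searched on both strands, was found once in these 4 windows, in Prox1, whereas 14.4% of all promoters hold it. Over the 9 windows of the 8 genes, 2 held it, and the other was that of the Ammon's horn gene Wfs1. CAGCTG (another E-box) and TGANTCA (an AP-1 site), likewise searched on both strands, were in none of the 4 windows and are held by 13 and 6.75% of all promoters. A match describes letters only, and the absence of one says nothing of the factor.

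Levels are given as normalized counts, in which each library's estimated counts were brought to a common size with edgeR's TMM factors. Before the genes are described, it has to be said that WT replicate 1 and Sgo1-/+ replicate 3 stood apart from the other libraries in markers of several brain regions, with the values given further on. Of the 6 dentate genes, Dsp, C1ql2 and Lct were high in a single Sgo1-/+ library, Prox1 was high in 1 library of each genotype, and Tdo2 and Trpc6 were highest in WT libraries. Dsp had 22.2, 8.57 and 10.1 normalized counts in the WT libraries (here and below in the order of replicates 1 to 3) and 11.9, 14.7 and 198 in the Sgo1-/+ libraries. Thus Sgo1-/+ replicate 3 was 8.94 times the next highest library, which was a WT library, and the other 5 libraries of the 2 groups overlapped. C1ql2 had 37.8, 35.1 and 8.12 normalized counts in WT and 23.8, 36.6 and 178 in Sgo1-/+. Again Sgo1-/+ replicate 3 stood alone, 4.70 times the next library, and WT replicate 3 was the lowest. Lct was the least abundant of the 3, with 12.1, 8.57 and 12.2 normalized counts in WT and 3.97, 9.68 and 81.3 in Sgo1-/+. Sgo1-/+ replicate 3 was 6.68 times the next library, and the lowest value, in Sgo1-/+ replicate 1, corresponds to 4 reads. Sgo1-/+ replicate 3 held 88.2% of the summed Sgo1-/+ counts of Dsp, 85.6% of those of Lct and 74.7% of those of C1ql2.

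Prox1 was high in 2 libraries, 1 of each genotype. It had 496, 204 and 222 normalized counts in WT and 236, 310 and 653 in Sgo1-/+. The WT value of 496, in replicate 1, stood against a median of 235.9 in the other 5 libraries. In that library Tdo2 was at 3.69, Dsp at 1.86, Lct at 1.25, C1ql2 at 1.08 and Trpc6 at 0.149 times the median of the others. An antisense gene, Prox1os, overlaps 133 bases of Prox1 exons and had between 6.67 and 29.5 normalized counts. Whether counting used the strand is not given in the sources used here, so reads in these bases could have been given to either gene. For Dsp, 499 exon bases overlap the antisense gene Gm10129, which has no row in the table.

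Tdo2 and Trpc6 did not share this order of libraries. Tdo2 was highest in WT replicate 1, with 38.6, 10.5 and 11.9 normalized counts in WT and 3.97, 8.11 and 22.5 in Sgo1-/+. Sgo1-/+ replicate 3 was second, at 2.15 times the median of the other 5. Trpc6 had 17.4, 122 and 126 normalized counts in WT and 72.8, 91.02 and 117 in Sgo1-/+. Here the library that stood apart was WT replicate 1, 6.71 times below the median of the others, and the Sgo1-/+ values all lay within the WT range.

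**Figure D1:**
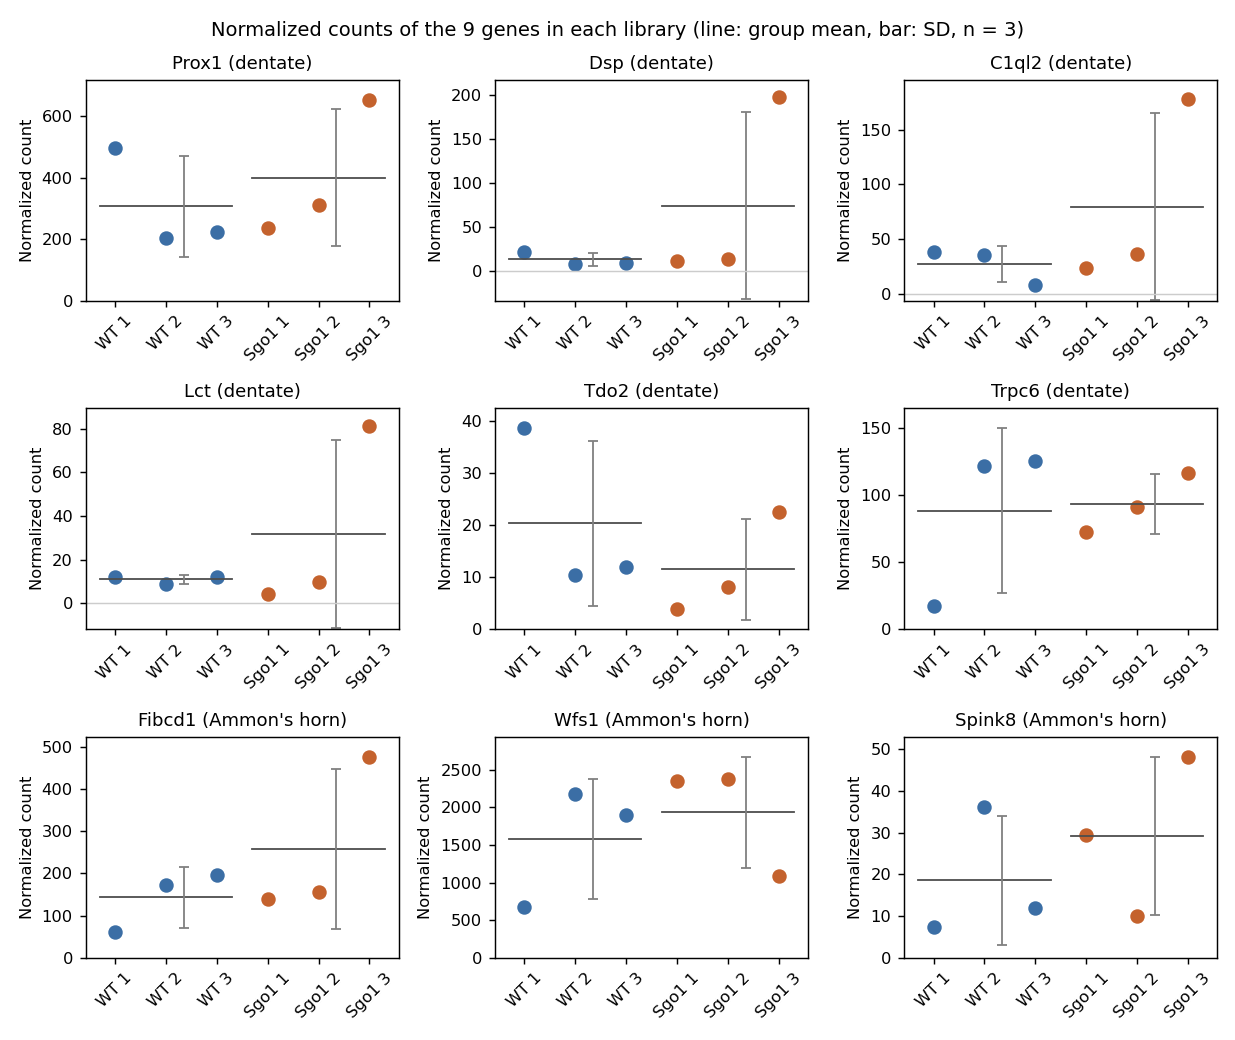
Normalized counts (linear axes) of the 9 genes in the 6 libraries, with WT in blue and Sgo1-/+ in orange; lines are group means and bars SD (n = 3). Dsp, C1ql2 and Lct are at 198, 178 and 81.3 in Sgo1-/+ replicate 3 and at most 22.2, 37.8 and 12.2 in the other 5 libraries.

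The Ammon's horn genes were all lowest in WT replicate 1. Fibcd1 had 60.4, 171 and 197 normalized counts in WT and 139.6, 156 and 476 in Sgo1-/+. Sgo1-/+ replicate 3 was 2.42 times the next library, and the remaining 4 libraries lay between 139.6 and 197. Spink8 had 7.48, 36.2 and 11.9 normalized counts in WT and 29.4, 10.1 and 48.1 in Sgo1-/+. It was also highest in Sgo1-/+ replicate 3, but only 1.33 times WT replicate 2, and both groups held values near 10. Wfs1, the most abundant member, went the other way, with 673, 2180 and 1899 normalized counts in WT and 2352, 2374 and 1084 in Sgo1-/+. Sgo1-/+ replicate 3 was the second lowest library for Wfs1, at 0.497 times the median of the others.

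Per kilobase of exon, a scale on which genes can be compared with each other, Wfs1 had the highest level, with 465 ± 189 normalized counts per kilobase (SD, n = 6). Prox1 and Fibcd1 followed at 42.1 ± 21.7 and 42.1 ± 30.1 (SD, n = 6), then Spink8 (29.1), C1ql2 (26.6), Trpc6 (18.0), Dsp (4.58), Tdo2 (4.11) and Lct (3.32). Only the step from Wfs1 to Prox1 was larger than the spread over libraries, and the ranges of mean ± SD overlapped for all other neighbors in this order.

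In total, 7 of the 9 genes were at least 2-fold above the median of the other 5 libraries in Sgo1-/+ replicate 3 (5 of 6 dentate and 2 of 3 Ammon's horn), against 1.79% of the 16337 genes tested. Trpc6 and Wfs1 were the exceptions, and Wfs1 was at least 2-fold below, against 2.89%. Sgo1-/+ replicate 3 was the highest library for 6 of the 9 genes, against 12.8% of the genes tested, and the lowest for 0, against 13%. In WT replicate 1, 4 of the 9 (Trpc6, Fibcd1, Wfs1 and Spink8) were at least 2-fold below the median of the others, against 8.51% of the genes tested. The same 4 were lowest in that library, against 30.2%. Prox1 and Tdo2 were at least 2-fold above the median there, against 4.99%, and Tdo2 was highest there, against 28.1%. Both libraries were singled out after their values were seen, and these counts describe 1 library each.

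Markers of other brain regions moved with the same libraries. In Sgo1-/+ replicate 3, all 7 genes of the thalamus list were at least 2-fold above the median of the other libraries, and the list summed to 4778 normalized counts against 874 to 3431 in the others. All 6 genes of the choroid plexus list were also at least 2-fold above it, at a sum of 23584 against 285 to 21075, and all 6 olfactory bulb genes were at least 2-fold below. The second highest sums of both the thalamus (3431) and the choroid plexus list (21075) were in WT replicate 1, where Prox1 was also second highest. Of that thalamus sum, 2134 was Slc17a6 alone. In WT replicate 1, 2 of the 7 thalamus genes were at least 2-fold above the median of the others, and 2 were lowest there. The 7 genes ranged from Tnnt1 at 0.533 to Slc17a6 at 5.47 times that median, and the middle gene was at 1.18. The 6 striatum genes summed to 8649 in Sgo1-/+ replicate 3 and to 1594 in WT replicate 1. In the remaining libraries their sum lay between 10469 and 19520. In WT replicate 1, 6 brain stem genes summed to 1041 normalized counts, against at most 6.09 elsewhere, and 6 cerebellar granule cell genes to 15433, against 380 to 1148. Cortex genes summed to 3971 in that library and to between 7225 and 8823 in the others. Of the 8 cortex genes, 7 were lowest there and 4 at least 2-fold below the median of the others, from Tbr1 at 0.0452 to Lamp5 at 0.847 times it. Markers of the olfactory bulb, which the dissection left out, summed to 1879, 1706 and 995 in WT replicates 2 and 3 and Sgo1-/+ replicate 1. The part of these differences in tissue in the hippocampal values was not tested.

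**Figure D2:**
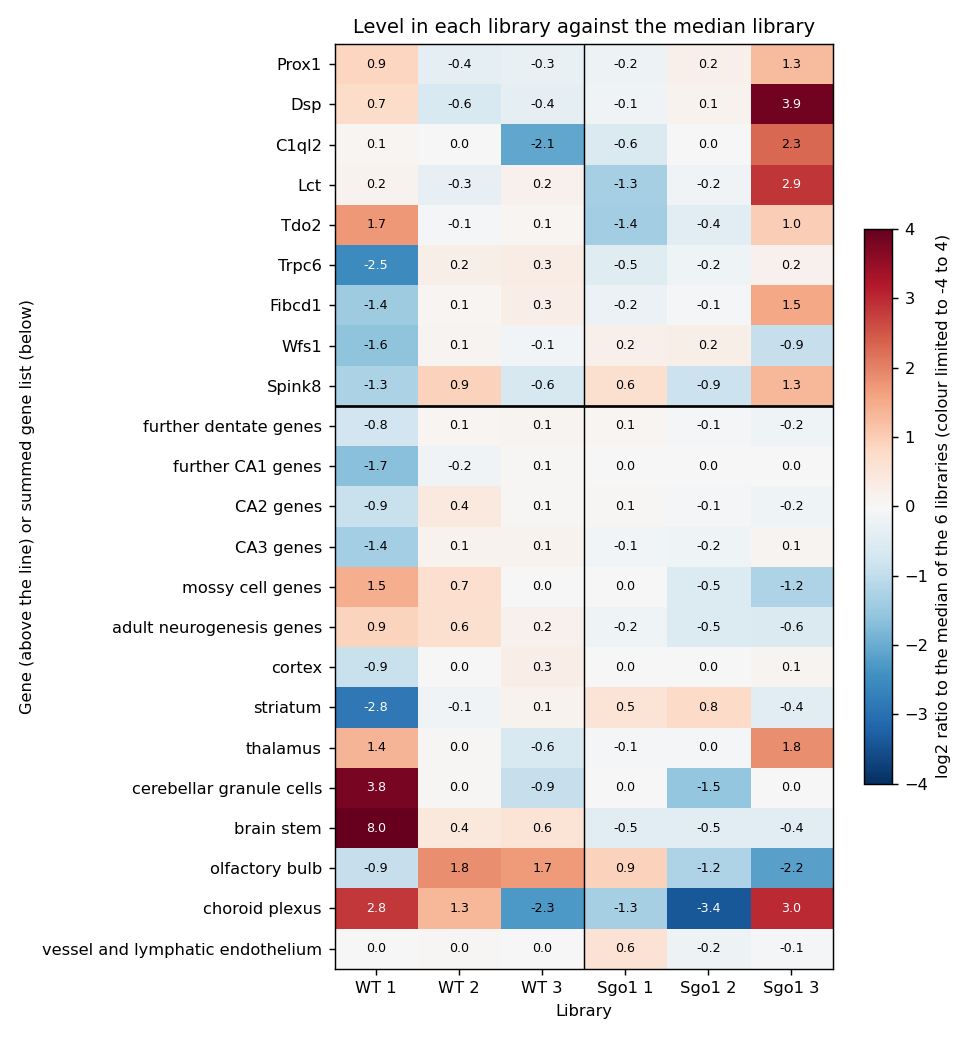
Log2 ratio of each library to the median of the 6 libraries, for log2(normalized count + 0.5) of the 9 genes (above the line) and for summed normalized counts of marker lists (below, values under 3 set to 3). In Sgo1-/+ replicate 3, Fibcd1, Spink8, the thalamus, the choroid plexus and the dentate genes except Trpc6 are red, and Wfs1 is blue. WT replicate 1 is red for brain stem, cerebellar granule cells, choroid plexus and thalamus and blue for Ammon's horn, striatum and cortex.

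In Sgo1-/+ replicate 3, further genes of the hippocampal fields, taken from lists of textbook markers, did not rise as a whole with the members. The median further dentate gene was at 0.965 times the median of the other libraries. Single genes did rise. Over the 6 lists of fields, mossy cells and adult neurogenesis, 5 of 38 genes were at least 2-fold above that median, against 1.79% of the genes tested. Of the 10 further dentate genes, 2 were. In WT replicate 1, where the Ammon's horn genes were lowest, the summed further CA1, CA2, CA3 and dentate lists were also low. They were at −1.68, −0.884, −1.36 and −0.772 on the log2 scale against the median library. The summed mossy cell and adult neurogenesis lists were at 1.46 and 0.899 there, but each sum was mostly 1 gene. Calb2 made 2346 of 2483 normalized counts and Neurod1 1352 of 1604. The median gene of these lists was at 0.820 and 0.590 times the median of the other libraries in WT replicate 1. Of 10 further dentate genes, 7 had a log2 fold change above 0 between the genotypes, with a median of 0.087, and 0 passed the adjusted threshold of edgeR's test. In Sgo1-/+ replicate 3, Pkp2 and Glis3 (named after their values were seen) were at 2.57 and 1.74 times the median of the other libraries. The most abundant genes of that list, Pdzd2, Stxbp6, Dock10 and C1ql3, were at 0.701, 0.886, 0.981 and 0.949 times it. These genes are also used by cortical neurons. C1ql3, the closest relative of C1ql2 on the lists, had 265, 822 and 979 normalized counts in WT and 701, 734 and 697 in Sgo1-/+. In Sgo1-/+ replicate 3, C1ql2 was thus at 5.06 times and C1ql3 at 0.949 times the median of the other libraries.

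Of 6 further CA1 genes, 2 (Lefty1 and Gpr161, named after their values were seen) were at least 2-fold above the median of the others in Sgo1-/+ replicate 3, against 1.79% of the genes tested. Ndst4 was at 0.431 times it, at least 2-fold below, against 2.89%, and Mpped1, the most abundant, was at 1.02 times it. None of 5 CA2 genes and 1 of 6 CA3 genes were that high. The CA3 gene was Iyd, a deiodinase gene that the filter on low counts removed. Iyd had 0.434, 5.36 and 0 normalized counts in WT and 1.99, 2.03 and 16.4 in Sgo1-/+. The CA2 gene Rgs14, a regulator of G-protein signaling, had 25.6 normalized counts in WT replicate 1, against 654 to 753 in the remaining libraries. The other CA2 genes did not share this, since in WT replicate 1 Amigo2 was at 1.42, Ntf3 at 1.07, Cacng5 at 1.04 and Map3k15 at 0.649 times the median of the others. Of the 6 CA3 genes, 4 were at least 2-fold below the median there, against 8.51% of the genes tested. The most abundant CA3 genes, Cpne4, Bok, Coch and Grik4, were at 0.245, 0.311, 0.354 and 0.984 times it. Of the 6 further CA1 genes, 2 were that low, Mpped1 (0.214) and Pou3f1 (0.253).

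Of 6 genes of progenitors and newborn neurons, 0 were at least 2-fold above the median of the others in Sgo1-/+ replicate 3. Dcx (doublecortin), which marks migrating young neurons, had 176, 1064 and 745 normalized counts in WT and 513, 387 and 312 in Sgo1-/+. Sox11 and Igfbpl1 were at 0.315 and 0.237 times the median of the other libraries in Sgo1-/+ replicate 3. Dcx also marks young neurons on their way to the olfactory bulb, and its 3 highest libraries were the same 3 in which the olfactory bulb list was highest. Neurod1 had 1352 normalized counts in WT replicate 1 and at most 190 elsewhere, and it is also a gene of cerebellar granule cells.

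The genotypes were compared by edgeR's quasi-likelihood test over all 16337 genes tested, which included all 9 members. No member passed an adjusted p-value of 0.05 (Benjamini-Hochberg over all genes), where 0% of all genes passed, and 0 of 9 had an unadjusted p-value under 0.05, against 2.04% of all genes. DESeq2's Wald test and limma gave 0 of 9 by either measure, and DESeq2 gave Dsp no p-value. The 2 groups overlapped for all 9 members, while 6.85% of all genes did not overlap (3.28% higher and 3.57% lower in Sgo1-/+). The fitted log2 fold change, Sgo1-/+ against WT, was above 0 in 8 of 9 members, against 49.8% of all genes. Its median was 0.95 over the 6 dentate genes and 0.66 over the 3 Ammon's horn genes, against 0.00 (−0.00069) over all genes tested. Without Sgo1-/+ replicate 3 the medians were −0.14 and 0.11, and without both that library and WT replicate 1 they were −0.10 and −0.28.

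The largest fitted fold change was that of Dsp, from 13.6 ± 7.43 normalized counts in WT to 74.9 ± 107 in Sgo1-/+ (SD, n = 3). This was a log2 fold change of 2.45 (SE 1.16). By edgeR, its p-value was 0.0723 before and 0.9999 after adjustment. Without Sgo1-/+ replicate 3 the log2 fold change of Dsp was −0.059 (SE 0.557). C1ql2 was at 27.03 ± 16.4 in WT and 79.4 ± 85.5 in Sgo1-/+. Its log2 fold change of 1.54 (SE 0.873) was 0.15 without Sgo1-/+ replicate 3. Lct was at 10.9 ± 2.06 in WT and 31.6 ± 43.1 in Sgo1-/+. Its log2 fold change of 1.52 (SE 1.02) was −0.63 without Sgo1-/+ replicate 3. For Dsp and Lct, therefore, the higher Sgo1-/+ mean came from that library. For C1ql2 most of the difference did, and the mean of the other Sgo1-/+ libraries, 30.2, was still slightly above the WT mean. The difference between the group means of Prox1 was smaller, 307 ± 164 against 399.6 ± 223 (SD, n = 3), with a log2 fold change of 0.38 (SE 0.481). Leaving out WT replicate 1 gave 0.91 (SE 0.405), and leaving out Sgo1-/+ replicate 3 gave −0.17.

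Tdo2 was the only member with a negative change, −0.81 (SE 0.757), which became 0.023 when WT replicate 1 was left out and −1.73 when Sgo1-/+ replicate 3 was. The change of Trpc6 was 0.08 (SE 0.635), and −0.41 (SE 0.240) without WT replicate 1. Among the Ammon's horn genes, Fibcd1 had a log2 fold change of 0.85 (SE 0.598), which was 0.05 without Sgo1-/+ replicate 3. The change of Spink8 was 0.66 (SE 0.737), and 0.11 without Sgo1-/+ replicate 3. Wfs1 had 0.29 (SE 0.473), and −0.074 without WT replicate 1. Exact two-sided permutation tests of log2 normalized counts over the 20 groupings gave p-values from 0.4 for Tdo2 to 1 for Trpc6, where the smallest p that 3 against 3 allows is 0.1. The exact tests thus could not reach 0.05 for any gene and cannot decide the question alone. The groups overlapped for all 9 genes, and edgeR's test called none of them.

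**Figure D3:**
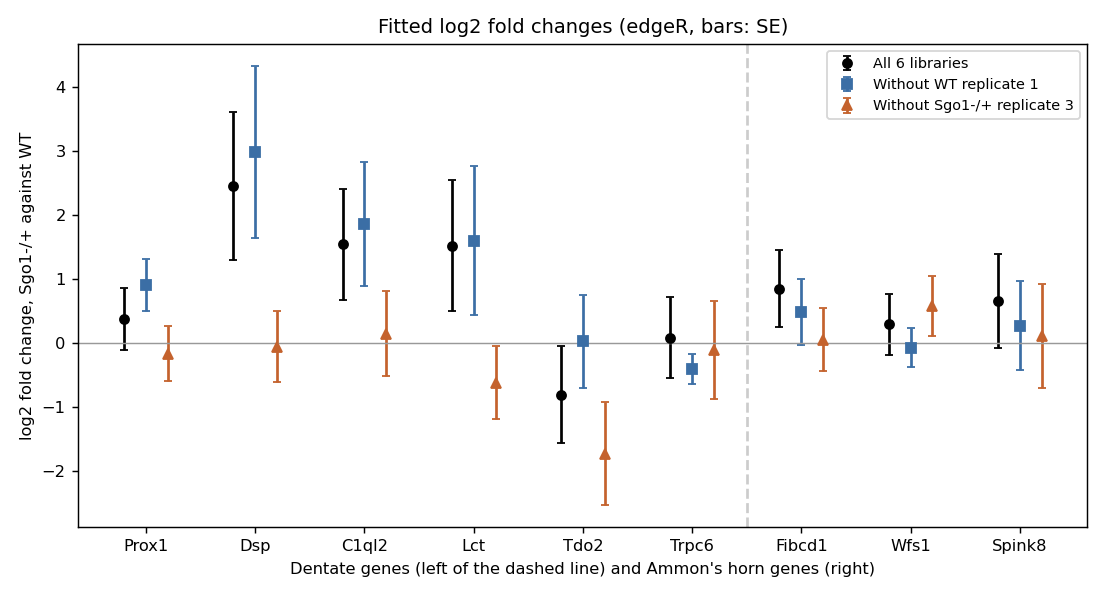
Log2 fold change of Sgo1-/+ against WT (edgeR, bars SE) for the 9 genes with all 6 libraries (black), without WT replicate 1 (blue) and without Sgo1-/+ replicate 3 (orange). Dsp, C1ql2 and Lct fall from 2.45, 1.54 and 1.52 to −0.059, 0.15 and −0.63 when Sgo1-/+ replicate 3 is left out.

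To set the dentate against the Ammon's horn genes within a library, the difference between their mean log2 normalized counts was taken, which does not depend on library size. It was −0.80, −2.97 and −2.62 in WT and −3.30, −2.24 and −1.16 in Sgo1-/+. The balance was thus most on the dentate side in WT replicate 1 and Sgo1-/+ replicate 3. For Sgo1-/+ replicate 3 the distance to the next library depended on Wfs1. With Wfs1 left out, the values were 0.84, −1.38 and −0.86 in WT and −1.58, −0.29 and −0.21 in Sgo1-/+. Sgo1-/+ replicate 3 was then still second to WT replicate 1, but lay close to Sgo1-/+ replicate 2. With Wfs1 included, WT replicate 1 and Sgo1-/+ replicate 3 came to their balance differently. In Sgo1-/+ replicate 3 the mean log2 level was the highest of all libraries for both the dentate (7.04) and the Ammon's horn genes (8.19), whereas in WT replicate 1 the Ammon's horn mean was the lowest (6.11) and the dentate mean was 5.30. The group means were −2.13 ± 1.16 in WT and −2.23 ± 1.07 in Sgo1-/+ (SD, n = 3), a difference of −0.10 that is well within the spread. Leaving out 1 library at a time moved it to between −0.64 (Sgo1-/+ replicate 3 left out) and 0.56 (WT replicate 1 left out), and it was also above 0, at 0.43, when Sgo1-/+ replicate 1 was left out.

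**Figure D4:**
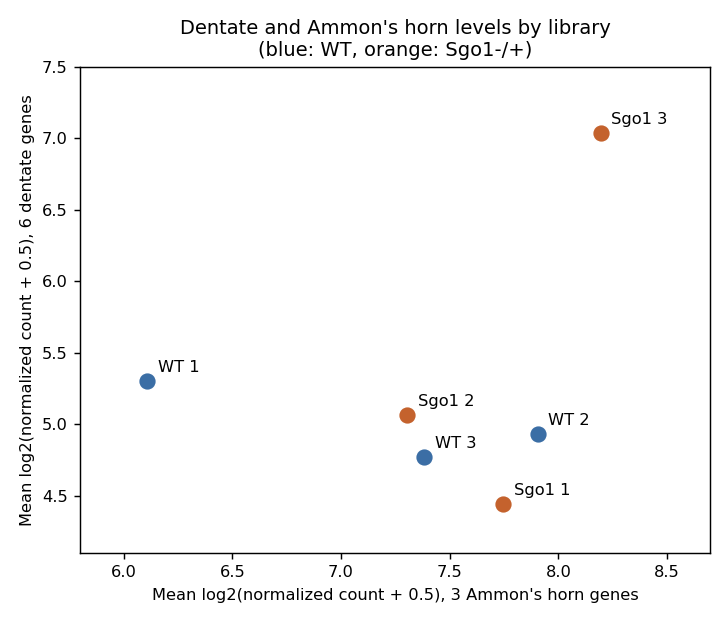
Mean log2(normalized count + 0.5) of the 6 dentate genes against that of the 3 Ammon's horn genes, 1 point per library. Sgo1-/+ replicate 3 lies at 7.04 and 8.19, WT replicate 1 at 5.30 and 6.11, and the other 4 libraries have dentate means between 4.44 and 5.06.

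Over the 6 further lists of hippocampal fields, mossy cells and adult neurogenesis, 37 of 38 genes were tested. None passed the adjusted threshold of edgeR's test, 0 were higher and 2 were lower in Sgo1-/+ at an unadjusted p-value under 0.05 (against 0.808 and 1.23% of all genes), and their median log2 fold change was 0.05. The 2 were Calb2 and Cacng5. Calb2 (calretinin), a gene of mossy cells and of many interneurons, had 2346, 1229 and 735 normalized counts in WT and 710, 478 and 236 in Sgo1-/+. Its log2 fold change was −1.60, with an SE of 0.519 and an edgeR p-value of 0.0182 before adjustment. Without WT replicate 1 the log2 fold change of Calb2 was −1.05, and the remaining libraries of the groups did not overlap. The cerebellar granule cell list was also highest in WT replicate 1. Over the remaining libraries, Calb2 fell in the same order as the olfactory bulb list. The part of these tissue differences in Calb2 was not tested. Of the 5 mossy cell genes, 3 had a log2 fold change above 0 and 2 below. Cacng5, an AMPA receptor auxiliary subunit gene, had 375, 634 and 464 normalized counts in WT and 362, 245 and 236 in Sgo1-/+. Its log2 fold change was −0.81, with an SE of 0.249 and an edgeR p-value of 0.0146 before adjustment. The groups did not overlap for 5 of the 38 genes, against 6.85% of all genes tested (3.28% higher, 3.57% lower), of which 3 (Pou3f1, Csf2rb2 and Glipr1, named after their values were seen) were higher and Calb2 and Cacng5 were lower in Sgo1-/+.

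The genes closest to the mean dentate profile over the 6 libraries were sought among 793 genes that varied at least as much as that profile, by the root mean square difference of median-centered log2 CPM. They were Col8a1 (difference 0.32 on the log2 scale), Synpo2 (0.36), Ramp3 (0.40), Mfrp (0.50) and Gm10263 (0.55). Col8a1, a collagen gene, reached 231 normalized counts in Sgo1-/+ replicate 3, whereas the other libraries lay between 29.8 and 72.5. Ramp3, a gene for a receptor activity-modifying protein, reached 423, whereas the others lay between 67.2 and 106.6. Closest to the Ammon's horn profile among 1280 genes were Sec1 (0.25), Epha4 (0.26), Pkp2 (0.27), Cd6 (0.27) and 2900026A02Rik (0.28). Epha4, an ephrin receptor gene, ranged from 658 normalized counts in WT replicate 1 to 3143 in Sgo1-/+ replicate 3, with 2019 to 2489 elsewhere. Pkp2 (plakophilin 2), which like Dsp encodes a desmosomal protein, was on the further dentate list, and it had 23.2, 120.2 and 65.9 normalized counts in WT and 111, 68.2 and 175 in Sgo1-/+.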

How the data were processed

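RNA of 6 brains (3 WT, 3 Sgo1-/+) was sequenced as paired-end TruSeq libraries. Alignment by the authors was to the mm10 assembly in Strand NGS, and they deposited an estimated count per Ensembl gene and library, without normalization. The submitters' processing notes also name BWA and edgeR, with no role given. The authors also deposited log2 values, normalized by DESeq and centered on each gene's median, and for their own comparison a log2 fold change, the same as a signed score, and a ratio without direction. None of these entered a result. The authors' log2 fold change served only to read which columns belong to which condition, and the number within the run, 1 to 3, was taken as the replicate number of the labels.

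Estimated counts were rounded and compared with edgeR 4.0.16 (quasi-likelihood test, TMM, default filter on low counts, 16337 genes, no covariates, Benjamini-Hochberg adjustment). The standard error is the size of the log2 fold change divided by the square root of F. DESeq2 1.42.0 and limma 3.58.1 were alternatives, and all were first tested on simulated data with 200 changed genes. The 9 genes, the marker lists and the tests were chosen with earlier results of these data known. All members were named. Of each further list, up to 4 genes were to be named by mean normalized count, with any at an unadjusted p-value under 0.05; others are said to be named after their values were seen. The cortex list held 8 genes, that of vessel and lymphatic endothelium 5. Exon lengths and overlaps came from GENCODE M21, which holds 36308 of the 38087 gene IDs. Libraries were from separate mice. A gene of the further dentate list is not reported here.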

Additional observations from a re-analysis of the deposited data

How the results depend on the processing

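No member passed the adjusted threshold under any alternative, and the lowest adjusted p-value was 0.447, for Prox1, Dsp and Tdo2 (edgeR, library sizes scaled to the cortex genes). Of 139 refits of single members, 124 kept the direction and 15 turned it. Over all genes, the number past the adjusted threshold was 3 with DESeq2's Wald test, 1 in females only, 66 with the cortex scaling, and between 0 and 1 with each library left out. The cortex scaling moved the median of all genes by −0.83, and its fold changes, but not its p-values, are given relative to that median. The filter of 10 counts in every library kept 4 of the 9 members.

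With each library left out in turn, log2 fold changes lay between −0.17 and 0.91 for Prox1, −0.059 and 2.98 for Dsp, −0.63 and 2.04 for Lct, −1.73 and 0.023 for Tdo2, −0.41 and 0.42 for Trpc6 and −0.074 and 0.59 for Wfs1, and the medians between −0.14 and 1.31 for the dentate and 0.11 and 1.06 for the Ammon's horn genes. The direction turned without Sgo1-/+ replicate 3 (Prox1, Dsp, Lct, and Trpc6 at −0.11) and without WT replicate 1 (Tdo2, Trpc6 and Wfs1). The fit in females only left out WT replicate 1 and Sgo1-/+ replicate 2 and kept Sgo1-/+ replicate 3. In it, Tdo2 (0.22), Trpc6 (−0.39) and Wfs1 (−0.25) turned, the same genes as without WT replicate 1 alone. Sex and that library cannot be told apart here. Dsp was at 3.48 and Prox1 at 1.06 in females only (p before adjustment 0.0263 and 0.0494, edgeR), and the dentate median was at 1.55. Without both WT replicate 1 and Sgo1-/+ replicate 3, chosen after seeing the data, Lct (−0.55), Trpc6 (−0.60), Fibcd1 (−0.31) and Spink8 (−0.28) turned, and the medians were −0.096 over the dentate and −0.28 over the Ammon's horn genes. With the cortex scaling Prox1 was at −1.5e-04 relative to that median and at −0.83 before that shift, which its p-value tests. These changes follow from the libraries left out; for the cortex scaling and DESeq2 the cause was not tested.

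With the replicate number as a block, the dentate median was 0.55, the Ammon's horn median 0.78, and 0 genes passed. The same-numbered libraries did not deviate together (r across genes −0.15, 0.01 and −0.21), so the numbers were not taken as pairs. Lct and Tdo2 had as few as 4 reads in a library, which limits their precision.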
